A study of Drosophila melanogaster with 3 samples.

Results

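Of the 4482 reproducible Ets21C-eGFP binding peaks on the nuclear chromosome arms of Drosophila melanogaster white prepupae, 840 were high in biological replicates 2 and 3 and not in replicate 1. They made up 18.7% of those peaks (exact 95% interval 17.6 to 19.9%). They were chosen on the signal that the authors deposited for each replicate. For each replicate a top list was formed from the 4505 peaks with the strongest signal, which is the length of the optimal list of reproducible peaks. An optimal peak was kept where its summit lay within 100 bp of a summit in the top lists of replicates 2 and 3, and of none in the top list of replicate 1. Another 2048 optimal peaks were high in all 3 replicates, and 689 were high in replicate 1 and 1 other replicate. The 23 mitochondrial peaks of the optimal list were left out, and 0 of them followed the rule.

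The study mapped the binding of the ETS-family transcription factor Ets21C by chromatin immunoprecipitation and sequencing in whole animals at the white prepupa stage, the onset of metamorphosis. The 3 biological replicates formed 1 group. All were from the strain labelled d.ets6-GFP, a transgenic line in which Ets21C carries GFP at its C terminus (Ets21C-eGFP), with no untagged or otherwise treated group. Both sexes were pooled, the age was given as unknown, and precipitation was with an antibody against GFP, although the antibody field of the labels reads Ets21C. Sonicated chromatin was 200 to 800 bp long. The replicates were separate biosamples of 1 line, and the promoter that drives the fusion is not given in the sources used here. In whole animals, binding in fewer cells and weaker binding in each cell cannot be told apart.

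ETS proteins bind DNA at a GGAA core, and Ets21C is known in flies as a stress- and JNK-responsive factor that often acts with AP-1. Housekeeping promoters of the fly are often marked by another set of short sequences. Among these are the DNA replication-related element (DRE), bound by Dref and overlapping the sites of the boundary protein BEAF-32, the motif 1 element bound by M1BP, and a promoter E-box. Many such genes stand head to head, with start sites close together on opposite strands.

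Sequences around the summits of a few of these peaks are shown to make the later counts of words concrete. All are plus-strand dm6 sequence from the RefSeq Release 6 genome, up to 60 bases to each side of the summit, cut back where an annotated exon began. The first, at Mnat9 (chr3R:31616161-31616227), belonged to one of the highest members and held neither a DRE nor the M1BP word. A promoter E-box and the GGAA core lay within 100 bp of its summit, outside the stretch shown.
Mnat9: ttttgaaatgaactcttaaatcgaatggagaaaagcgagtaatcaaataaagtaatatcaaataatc

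The next sequences are from members with a DRE, TATCGATA, in capitals. They lay at CG32856 (chr3R:15965352-15965424), cnc (chr3R:23190048-23190168), SF2 (chr3R:16342062-16342182), eEF1gamma (chr3R:29220068-29220171) and RpS25 (chr3R:11216291-11216411).
CG32856: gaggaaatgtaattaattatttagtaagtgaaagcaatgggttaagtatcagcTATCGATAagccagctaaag
cnc: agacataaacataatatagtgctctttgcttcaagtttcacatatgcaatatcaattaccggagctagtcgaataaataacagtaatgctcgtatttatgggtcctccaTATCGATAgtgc
SF2: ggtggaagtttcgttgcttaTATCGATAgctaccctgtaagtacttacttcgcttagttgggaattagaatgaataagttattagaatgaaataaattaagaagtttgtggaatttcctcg
eEF1gamma: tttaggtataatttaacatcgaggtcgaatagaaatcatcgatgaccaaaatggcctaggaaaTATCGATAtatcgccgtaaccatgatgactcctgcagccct
RpS25: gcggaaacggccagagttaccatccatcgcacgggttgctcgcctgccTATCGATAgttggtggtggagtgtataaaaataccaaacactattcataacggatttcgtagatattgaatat

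The M1BP word GGTCACACT is in capitals in members at PIG-C (chr3L:3319304-3319424) and, read on the other strand, at muc (chr2L:7426591-7426711).
PIG-C: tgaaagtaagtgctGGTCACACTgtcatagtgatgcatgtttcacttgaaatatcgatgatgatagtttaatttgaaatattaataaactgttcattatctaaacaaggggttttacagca
muc: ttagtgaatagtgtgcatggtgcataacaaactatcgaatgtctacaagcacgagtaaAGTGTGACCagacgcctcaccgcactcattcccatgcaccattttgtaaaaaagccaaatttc

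The highest intronic and intergenic members are shown for contrast, at Myo61F (chr3L:1319245-1319365) and upstream of RasGAP1 (chr3L:9855906-9856026).
Myo61F: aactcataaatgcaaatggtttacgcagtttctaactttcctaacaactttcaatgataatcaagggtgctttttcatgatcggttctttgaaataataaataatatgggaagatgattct
RasGAP1: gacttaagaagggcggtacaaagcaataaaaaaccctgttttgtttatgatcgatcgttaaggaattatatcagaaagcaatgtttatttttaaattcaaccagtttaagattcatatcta

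Each list scales its signal separately, so heights per replicate are ratios: the signal of a peak over the top-list median of the same replicate. Those medians were 40.5 in replicate 1, 62.7 in replicate 2 and 91.6 in replicate 3, and the lowest peak of each top list stood at 0.615, 0.582 and 0.624 of them. The replicate lists held 30000, 28006 and 30000 peaks. They give no reads, so the depth of each replicate is unknown. Promoter peaks, with a summit within 500 bp of an annotated transcription start site (TSS), were a smaller part of replicate 1 below its highest ranks. Among ranks 1 to 500 they were 49.6% in replicate 1, 60.3% in replicate 2 and 52.0% in replicate 3. Among ranks 1501 to 4505 they were 20.9%, 40.4% and 48.8%, and among ranks 6001 to 10000 they were 11.1%, 23.9% and 44.8%. The part of these differences in the results that follow was not tested.

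Most members were absent from the deposited list of replicate 1, not merely low in it. The rule asks only that a peak miss the top list of replicate 1, yet 767 of the 840 (91.3%) had no summit within 100 bp in its whole list of 30000 peaks. Within 500 bp, 704 (83.8%) still had none, and the intervals of 706 overlapped no peak of that list. Other optimal peaks outside the top list of replicate 1 were mostly absent from its whole list too. Within 100 bp, that list held 21.7% of those high in replicate 2 only and 21.1% of those high in replicate 3 only. It held 24.5% of those in none of the top lists, and 8.69% of members. The mirror classes, high in replicate 1 and 1 other, were unlike all of these. Of the 260 optimal peaks high in replicates 1 and 3 only, 214 (82.3%) had a weaker summit within 100 bp in replicate 2, and 257 (98.8%) had one within 500 bp. Of the 429 high in replicates 1 and 2 only, 375 (87.4%) had one in replicate 3 within 100 bp and 418 (97.4%) within 500 bp. These counts come from the signals that chose the classes and carry no test. On the dm3 lists the same rule gave 821 peaks, of which 738 (89.9%) had no summit within 100 bp in replicate 1. In what follows, no peak in replicate 1, or absence from its list, means no summit within 100 bp in its whole list. Some of these members had a replicate 1 summit farther away or an overlapping interval.

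**Figure D1:**
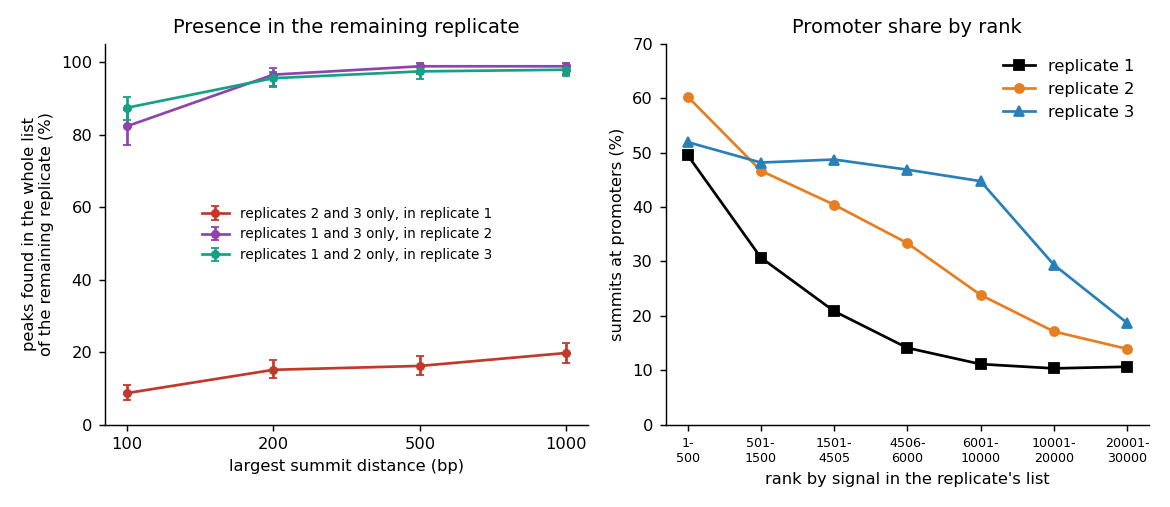
Left, share of the optimal peaks high in 2 replicates only that had a summit in the whole list of the remaining replicate, by the largest summit distance allowed in bp, with exact 95% intervals. Right, share of summits within 500 bp of a TSS, in percent, by rank of signal in each replicate's list. The peaks of replicates 2 and 3 only stay at 8.69% to 19.8% while both other classes reach 97.9% or more, and replicate 1 has the lowest share in each group of ranks.

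The 73 members that replicate 1 did hold were weak there. Their ranks in replicate 1 ran from 4556 to 26024 with a median of 6137, and their heights from 0.306 to 0.611 with a median of 0.534. Of the 840, 35 (4.17%) would have entered a top list of 6000 peaks. The nearest to the limit were at CG43759, AOX4 and CG6959, with replicate 1 ranks of 4556, 4565 and 4589. Just inside it, among the peaks high in all 3 replicates, stood peaks at L, Gr93a and mid with ranks of 4502, 4488 and 4447. The heights in replicate 1 on both sides of the limit, 0.609 to 0.611 and 0.615 to 0.619, were almost the same. A further 48 members had a summit of replicate 1's top list between 100 and 200 bp away.

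Replicates 2 and 3 held the members at like heights. The median height was 1.06 in replicate 2, with quartiles of 0.772 and 1.51, and 1.05 in replicate 3, with quartiles of 0.797 and 1.53. The ratio of the height in replicate 3 to that in replicate 2 had a median of 1.03 and quartiles of 0.793 and 1.27. It was above 1 in 446 members and below it in 394. Across the 840 peaks, which share both libraries, Spearman's rho between the 2 heights was 0.625. The rule admits only peaks in both top lists, which sets a floor under both heights. The like medians are thus partly built in, and these values are described only. In the optimal list the members' signal ran from 110 to 1444.5 with a median of 213. The median was 281 for peaks high in all 3 replicates and 141 for those high in replicate 1 and 1 other. Presence in replicate 1 fell with signal. In 4 groups of 210 members from lowest to highest signal, replicate 1 held 26.2%, 6.19%, 1.90% and 0.476%. The rule itself works toward this fall, because it removes peaks that are strong in replicate 1. The optimal signal was also made with that replicate, so the trend is described only.

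**Figure D2:**
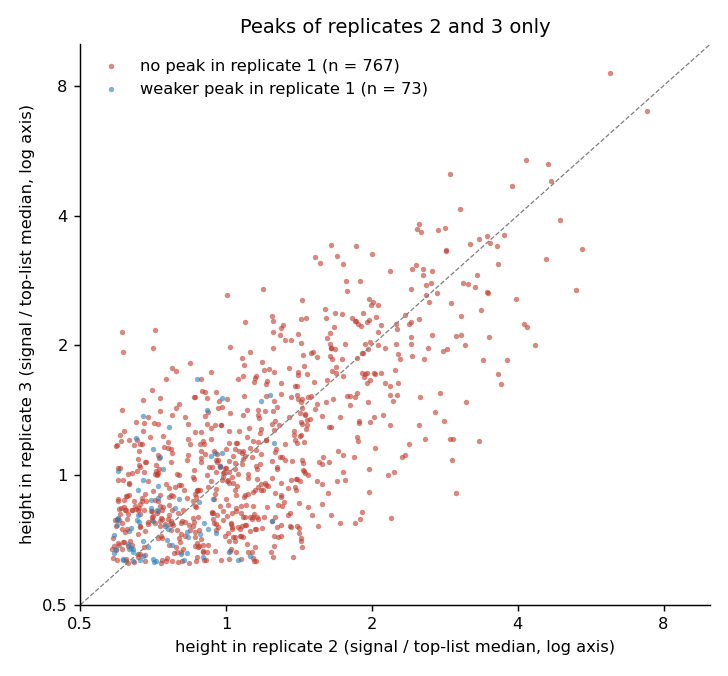
Height of each of the 840 peaks in replicate 2 (x axis) and replicate 3 (y axis), as signal over the top-list median, on log axes. The dashed line marks equal heights. The 73 peaks that replicate 1 held below its top list, in blue, gather at low heights, with medians of 0.723 and 0.768. The 767 with no summit within 100 bp in its list reach 7.39 and 8.57.

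The highest members were promoter peaks that ranked among the strongest sites of both replicates. At gish (FBgn0250823), which encodes a casein kinase I gamma, the peak had a signal of 1444.5 and ranked 52 in the optimal list. It stood at 6.22 in replicate 2, rank 69, and at 8.57 in replicate 3, rank 37, and replicate 1 had no peak there. At Mnat9 (FBgn0039859), an N-acetyltransferase gene, the peak at 3R:31616013-31616367 stood at 7.39 and 6.98, again with none in replicate 1. Its summit lay 7 bp upstream of the TSS, and the start of CG1792 was within 500 bp as well. With ranks of 45 in replicate 2 and 60 in replicate 3, it too was high in both libraries. Neither peak had a summit within 100 bp among the 30000 of replicate 1.

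The next promoter members were at CG10413, POSH, l(2)k01209, CG11857, CG1827, CG7988, CG13390, CG7841, alphaCOP and papi, with signals from 1003 down to 745. None of these 10 had a peak in replicate 1. Their heights were 2.89 to 5.43 in replicate 2 and 2.69 to 5.37 in replicate 3. POSH, a scaffold protein of JNK signalling, stood at 4.62 and 5.27. The gene alphaCOP, which encodes a coatomer subunit, stood at 4.57 and 3.18, and papi, a Tudor-domain factor of piRNA biogenesis, at 3.75 and 3.60. CG13390 and CG7988 were higher in replicate 2, at 5.27 against 2.69 and 5.43 against 3.34, while CG7841 was higher in replicate 3, at 5.001 against 2.89. These 10 were thus not all shifted one way between replicates 2 and 3.

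Intronic and intergenic members were lower. The 6 highest in introns were in Myo61F, Cyt-c-p, jar, simj, mrj and tai, with signals of 730 to 521. Myo61F encodes a class I myosin and jar myosin VI. Their peaks stood at 3.04 and 2.18 in replicate 2 and at 4.15 and 2.98 in replicate 3. Cyt-c-p, cytochrome c, stood at 3.26 and 2.73, and tai, a coactivator of the ecdysone receptor, at 3.65 and 1.72. Among the highest intergenic members were those nearest to RasGAP1, DNAlig3, vers, Dip-B and tara, with signals of 664 to 371. The peak 681 bp upstream of RasGAP1, a GTPase-activating protein for Ras, stood at 3.19 and 3.44. None of the intronic and intergenic members named here had a peak in replicate 1. The median height was 1.15 and 1.11 in replicates 2 and 3 for promoter members, 0.975 and 0.993 for intronic ones, and 0.924 and 0.969 for intergenic ones.

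Several members could fall in 1 long gene. The gene ush, which encodes a Friend-of-GATA cofactor, held 8 member summits among 11 optimal summits in its body at 2L:476220-540560, and 2 of the 11 were high in all 3 replicates. Syp, an RNA-binding protein gene, held 4 of 5, and kay, which encodes the Fos subunit of AP-1, held 3 of 5, with 0 high in all 3 replicates in either. CG32264 held 3 of 7, and tara, a trithorax-group gene, 3 of 11. Of their optimal summits, 3 in CG32264 and 2 in tara were high in all 3 replicates. These genes were picked for their number of member summits. Over all nuclear optimal peaks, members made up 18.7%.

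The members lay at promoters far more often than the peaks that replicate 1 held. Of the 840, 531 (63.2%, exact 95% interval 59.9 to 66.5%) were promoter peaks. Of peaks high in all 3 replicates the share was 33.7% (31.7 to 35.8%), and of those high in replicate 1 and 1 other it was 25.1% (21.9 to 28.5%). Both differences passed in two-sided Fisher's exact tests, and the p-values after Benjamini-Hochberg adjustment over 34 tests were 1.53e-46 and 6.48e-50. These tests compare lists of peaks and not animals, since peaks of 1 library are not independent replicates. Introns held 28.6% of members against 44.0% and 49.5% (adjusted p = 4.17e-14 and 4.53e-16 by the same Fisher's exact test). Intergenic sequence held 7.02% against 20.5% and 23.5% (adjusted p = 6.73e-20 and 5.35e-19 by Fisher's exact test). Exons and UTRs more than 500 bp from a TSS held 10 members, 1.19% against 1.81% and 1.89%, which did not pass (Fisher's exact test, adjusted p = 0.440 in both). Of those 10, 7 were in 3′ UTRs, 2 in 5′ UTRs and 0 in coding exons.

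Peaks outside replicate 1's top list were often at promoters whichever other replicate held them. Peaks high in replicate 3 only were at promoters in 58.8% of cases and those high in replicate 2 only in 49.6%, against 17.1% of those high in replicate 1 only. When replicate 1 was disregarded, the 2888 peaks high in replicates 2 and 3 were at promoters in 42.3% of cases. The 1303 high in only 1 of those 2 replicates were so in 39.1%, a difference of 3.25 percentage points that did not pass (Fisher's exact test, adjusted p = 0.277). Introns then held 39.5% against 41.2% and intergenic sequence 16.6% against 17.5%, which did not pass either (adjusted p = 0.652 and 0.835 by Fisher's exact test). Among members the share was 53.3% in the 210 of lowest signal and 73.8% in the 210 of highest signal. It was 65.8% in the 767 with no replicate 1 summit within 100 bp and 35.6% in the 73 that replicate 1 held weakly.

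**Figure D3:**
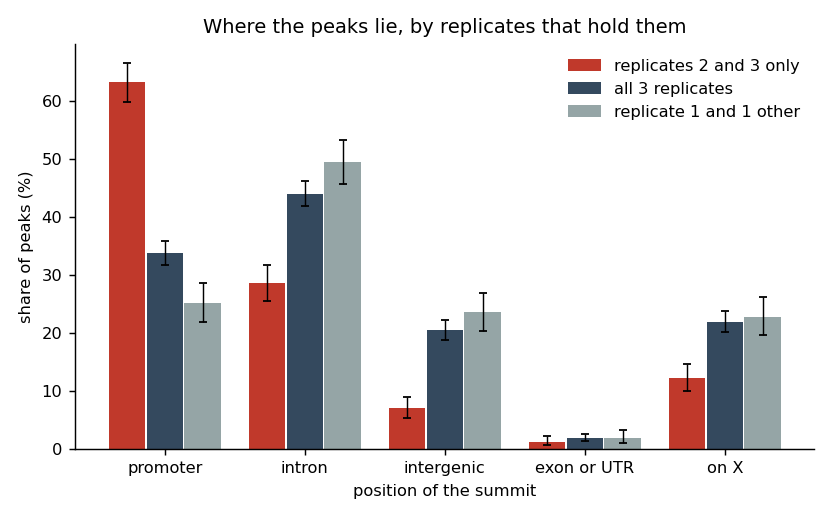
Share of peaks by position of the summit, in percent with exact 95% intervals, for the 840 peaks of replicates 2 and 3 only, the 2048 high in all 3 replicates and the 689 high in replicate 1 and 1 other. Promoters hold 63.2% of the first class, and introns, intergenic sequence and X hold smaller shares of it than of the others.

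The X chromosome held 102 members, 12.1% (10.01 to 14.5%). It held 21.8% of peaks high in all 3 replicates and 22.8% of those high in replicate 1 and 1 other (two-sided Fisher's exact test, adjusted p = 2.91e-09 and 1.92e-07). The share on X also differed between replicates 2 and 3. Peaks high in replicate 2 only were on X in 9.19% of cases, and those of replicates 1 and 2 only in 16.6%. Peaks high in replicate 3 only were on X in 31.0% of cases and those of replicates 1 and 3 only in 33.1%. The top lists as a whole had 19.3%, 16.1% and 20.2% of their nuclear peaks on X in replicates 1, 2 and 3. With replicate 1 disregarded, 19.0% of the peaks high in replicates 2 and 3 were on X against 22.1% of those high in only 1 of them, which did not pass (Fisher's exact test, adjusted p = 0.271). The largest number of members, 27.9%, lay on 3R.

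Members at promoters mostly sat just upstream of start sites. Of the 840, 515 were within 500 bp of the start of a protein-coding gene, and 430 of these (83.5%) were upstream of the nearest one. The median offset was -102 bp with quartiles of -156 and -45 bp, closer to the start than the median of -152 bp for peaks high in all 3 replicates. Coding starts on both strands lay within 500 bp of 234 of the 515 members (45.4%, exact 95% interval 41.1 to 49.9%), against 28.6% (25.1 to 32.3%) of coding promoter peaks high in all 3 replicates. The share was 60.2% for peaks high in replicate 2 only and 24.5% for those high in replicate 3 only. These differences were not tested. Over all 840, the distance to the nearest coding TSS had a median of 210 bp, against 1771.5 bp for peaks high in all 3 replicates. The GC content of the 101 bp at the summit was 33.3% ± 8.66 (SD over 840 peaks) and 31.4% ± 6.64 (SD over 2048).

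The DRE was more frequent at members than at either class that replicate 1 held. The word TATCGATA, which is its own reverse complement, lay within 100 bp of the summit in 45 members (5.36%, exact 95% interval 3.93 to 7.10%). It did so in 1.27% of peaks high in all 3 replicates and 1.31% of those high in replicate 1 and 1 other (two-sided Fisher's exact test, adjusted p = 7.99e-09 and 3.29e-05). CGATA, the core of BEAF-32 sites, which every DRE contains, was within 100 bp of 30.7% of members against 22.8% and 22.4% (adjusted p = 3.29e-05 and 6.79e-04 by Fisher's exact test). The M1BP word GGTCACACT was found in 12 members (1.43%) against 0.537% and 0.145% (adjusted p = 0.0402 and 0.0186 by Fisher's exact test). The E-box CAGCTG was found in 10.6% against 6.69% and 5.22% (adjusted p = 0.00139 and 4.43e-04 by Fisher's exact test). All words were searched on both strands. Peaks high in replicate 2 only and in replicate 3 only, which replicate 1's top list also lacked, mostly held these words at shares near those of the members. The DRE was at 4.41% and 4.39% of them, CGATA at 32.7% and 32.2%, and the M1BP word at 1.47% and 2.05%. The E-box was at 7.35% and 11.1%, the first nearer to the 6.69% of peaks high in all 3 replicates. Over 28 alternatives in the processing of both comparisons, the M1BP difference was not past the threshold in 17, the E-box difference in 12, the CGATA difference in 7 and the DRE difference in 6. The 28 are not all distinct, since the settings that disregard a replicate use the same peaks in both comparisons and are counted in each. With replicate 1 disregarded, the DRE was at 2.46% of peaks high in replicates 2 and 3 and at 2.76% of those high in only 1 of them (Fisher's exact test, adjusted p = 0.835), and CGATA at 25.1% and 27.1% (adjusted p = 0.480 by Fisher's exact test).

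Most members with a DRE lay at promoters, and there DRE and CGATA alone passed against peaks high in all 3 replicates. Of the 45 members with a DRE, 42 were promoter peaks. Among promoter summits alone, the DRE was at 7.91% of members and 3.33% of peaks high in all 3 replicates (Fisher's exact test, adjusted p = 0.00799), and CGATA at 37.7% against 28.5% (adjusted p = 0.00982). Against the 173 promoter peaks high in replicate 1 and 1 other, no word passed Fisher's exact test: the DRE was at 4.05% (adjusted p = 0.271) and CGATA at 31.2% (adjusted p = 0.378). At the promoter peaks high in replicate 2 only and in replicate 3 only, the DRE was at 7.41% and 5.97% and CGATA at 45.2% and 38.3%, so neither share was particular to the members. M1BP and the E-box passed in neither of these promoter comparisons, with adjusted p of 0.116 to 0.291. Outside promoters, the DRE was at 0.971% of members and 0.221% of peaks high in all 3 replicates, and no word passed in either comparison. For scale, windows of the same length at all 19252 annotated coding TSSs held the DRE in 6.45% of cases, CGATA in 37.1%, the M1BP word in 4.42% and the E-box in 13.4%. The M1BP word was at 2.07% and the E-box at 13.0% of promoter members, and neither was tested against the start sites.

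**Figure D4:**
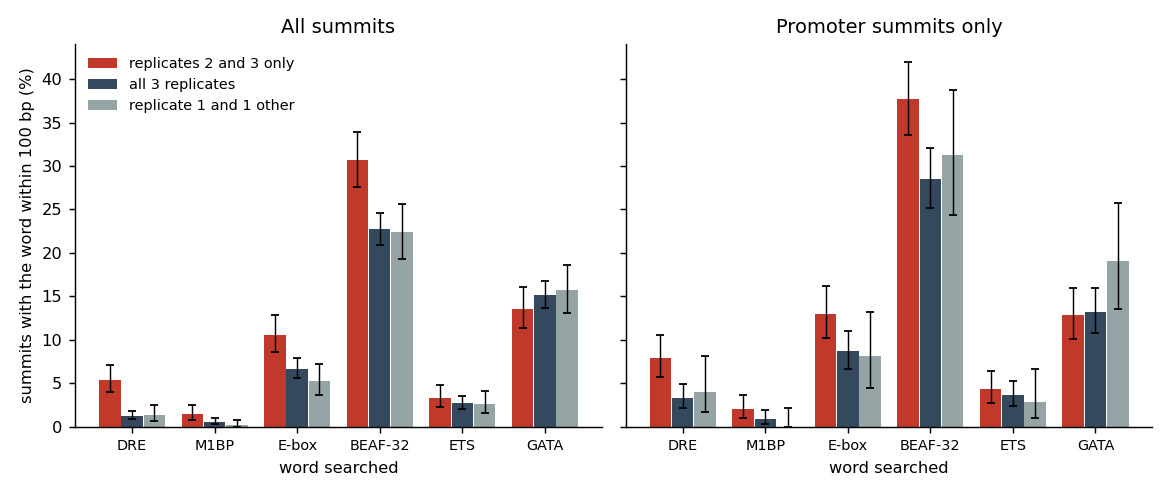
Share of summits with a word within 100 bp, in percent with exact 95% intervals, over all summits (left) and promoter summits only (right), for the same classes of peaks. DRE stands for TATCGATA, M1BP for GGTCACACT, E-box for CAGCTG, BEAF-32 for CGATA, ETS for CCGGAA and GATA for AGATAA. Over all summits the DRE is at 5.36% of the peaks of replicates 2 and 3 only and at 1.27% and 1.31% of the others, and the ETS word differs little.

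Words of the factor's own family did not pass in the comparisons with all 3 replicates in use. The ETS word CCGGAA lay near 3.33% of members, 2.73% of peaks high in all 3 replicates and 2.61% of those high in replicate 1 and 1 other (Fisher's exact test, adjusted p = 0.516 and 0.572). With replicate 2 disregarded, CCGGAA lay near 4.74% of the 1182 peaks high in replicate 3 and not in replicate 1, and near 2.77% of the 2308 high in both, which passed (Fisher's exact test, adjusted p = 0.00598). Peaks high in replicate 3 only held it in 8.19% of cases. The GGAA core, which CCGGAA contains, lay near 73.6% of members and 74.0% of either other class (adjusted p = 0.879 in both by Fisher's exact test). The AP-1 word TGACTCA was near 1.67%, against 1.27% and 1.89%. The GAGA word GAGAG did not pass within 100 bp, but within 150 bp it lay near 30.2% of members and 36.0% of peaks high in all 3 replicates (Fisher's exact test, adjusted p = 0.00582). The TATA word TATAAA did not pass within 100 bp either. Within 150 bp it lay near 47.4% of members and 42.7% of peaks high in all 3 replicates (Fisher's exact test, adjusted p = 0.0416). With replicate 3 disregarded it lay near 40.9% of the peaks high in replicate 2 and not in replicate 1 and 36.3% of those high in both (adjusted p = 0.0173 by Fisher's exact test). Peaks high in replicate 2 only held TATAAA in 52.6% of cases, and those high in replicate 3 only in 23.7%. AGATAA, the site of GATA factors, and the initiator word CTTTCT of translation genes did not pass. A run of 8 A was rarer at members than at peaks high in replicate 1 and 1 other, 14.2% against 19.6% (Fisher's exact test, adjusted p = 0.0129), but did not pass against those high in all 3 replicates (16.7%, adjusted p = 0.197). The first of these was lost in 9 of 14 alternatives, among them autosomes only, promoter summits only and top lists of 3000 or 6000 peaks. The second passed in 2, without replicate 2 (adjusted p = 0.0272) and for absence from the whole list of replicate 1 (adjusted p = 0.0311, both by Fisher's exact test). The shares of CCGGAA and GGAA in windows at all coding TSSs were 5.83% and 79.2%.

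Members with a DRE had heights like those of the rest. Their median height was 1.02 in replicate 2 and 1.19 in replicate 3, against 1.07 and 1.04 for the 795 without one. They spanned signals of 110 to 897, the highest at CG1827. The DRE was a median of 52.5 bp from the summit and within 25 bp in 13 of 45. The group mixed roles: cnc encodes a bZIP factor of the oxidative stress response, Sfmbt a Polycomb-group protein, SF2 a splicing factor, kibra a Hippo pathway regulator, Rab7 a late endosome GTPase and eRF1 the translation release factor. At cnc (3R:23189993-23190192) the peak stood at 1.30 in replicate 2 and 2.19 in replicate 3. At eEF1gamma (3R:29219964-29220207), which encodes an elongation factor subunit, it stood at 1.09 and 2.26. Both were higher in replicate 3 and had no peak in replicate 1. Of the 12 members with the M1BP word, 11 were promoter peaks and 0 had a peak in replicate 1.

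Member promoter peaks lay within 500 bp of 755 of the 13945 protein-coding genes, 5.41% of them. Promoter peaks high in all 3 replicates lay at 783 genes, 5.61%. A peak between head-to-head genes counts for each of them. The lists of genes described next were chosen with results of these data known and are given as counts beside those shares, with no test.

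Among genes of protein synthesis, those of the cytosolic ribosome had the most member peaks. Of 93 cytosolic ribosomal protein genes, 20 (21.5%) had a member promoter peak and 2 (2.15%) a promoter peak high in all 3 replicates. Promoter peaks high in replicate 1 and 1 other lay at 4 (4.30%), against 1.33% of all coding genes. Optimal promoter peaks of any class lay at 44 (47.3%), against 15.2% of all coding genes. Counting any peak of a top list, 7 of the 93 (7.53%) had one in replicate 1. In replicates 2 and 3, 35 (37.6%) and 64 (68.8%) had one. Over all coding genes the shares in replicates 1, 2 and 3 were 8.68%, 17.4% and 18.6%. The list was thus near the share of all coding genes in replicate 1, and above it in replicates 2 and 3. The highest member peak of the list was at RpL32 (3R:30046099-30046474), with heights of 3.33 in replicate 2 and 3.52 in replicate 3. RpS27 stood at 2.55 and 3.00, RpS20 at 2.99 and 2.10, and RpL7 at 1.53 and 3.20. Over the 20 genes the height ran from 0.591 to 3.33 with a median of 1.03 in replicate 2, and from 0.761 to 3.52 with a median of 1.57 in replicate 3. Replicate 3 was the higher at 18 of the 20, though not at RpS20, and only RpS12 had a peak in replicate 1, at 0.597. A DRE was near the summit at 6 of the 20, among them RpL26, RpS25, RpL34a, RpS12 and RpL27, and the M1BP word at 3 (RpL7, RpL27 and RpS23).

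Other genes of translation had member peaks too. Of 51 initiation and elongation factor genes, 6 (11.8%) had a member peak and 1 a peak high in all 3 replicates. eIF4EHP, a cap-binding repressor of translation, stood at 3.32 in replicate 2 and 1.20 in replicate 3, and eIF3c at 2.21 and 1.48. Replicate 3 was the higher at 3 of the 6, among them eIF3h at 1.63 and 2.01. Of 20 aminoacyl-tRNA synthetase genes, 3 had a member peak and 2 a peak high in all 3 replicates. The members stood at 3.13 and 1.47 at GluProRS, 1.74 and 1.11 at AspRS, and 1.13 and 0.792 at ArgRS, each higher in replicate 2. Of 73 mitochondrial ribosomal protein genes, 8 (11.0%) had a member peak and 9 a peak high in all 3 replicates. The 6 highest of these, at mRpL34, mRpS6, mRpL18, mRpS7, mRpS22 and mRpS21, were all higher in replicate 2, by as much as 2.19 against 0.793 at mRpS6 and by as little as 1.153 against 1.146 at mRpL18. The peak at mRpS21 is also counted below at the chaperone gene Droj2.

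Energy and protein quality control genes were also among them. Of 80 respiratory chain and ATP synthase genes, 8 had a member peak and 3 a peak high in all 3 replicates. The complex I genes ND-MWFE and ND-ASHI stood at 3.05 and 2.55 in replicate 2 and at 2.12 and 2.91 in replicate 3. Of 20 chaperone genes, 7 (35.0%) had a member peak against 3 with a peak high in all 3 replicates. Hsp26, a small heat shock protein gene, stood at 1.56 and 3.10, and Hsp83, which encodes the Hsp90 chaperone, at 1.00 and 2.62, both higher in replicate 3. CCT8, a chaperonin subunit, stood at 1.09 and 0.799. Vacuolar ATPase genes had 3 of 33 and proteasome genes 2 of 48 (4.17%), the latter near the 5.41% of all coding genes. Each of these lists had 1 gene with a peak high in all 3 replicates.

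Genes of the factors that bind the words above carried members themselves. Of 14 insulator and interband protein genes, 5 had a member peak, Cp190, pzg, BEAF-32, M1BP and Dref, and 4 had a peak high in all 3 replicates. Cp190, a cofactor shared by insulator proteins, had the highest (3R:15275206-15275576), at 4.12 in replicate 2 and 2.24 in replicate 3. BEAF-32 stood at 1.10 and 0.853, M1BP at 1.51 and 0.808, and pzg at 1.13 and 1.10. The peak at Dref (2L:9966996-9967395) was 33 bp inside the gene and stood at 1.003 and 1.499. It is also the peak counted at RpL13, whose start is close by. Replicate 1 had no summit within 100 bp of any of these 5 member summits, but BEAF-32 had a further promoter peak that was high in all 3 replicates.

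Regulators linked to metamorphosis and stress formed shorter lists. Of 24 ecdysone-response genes, 3 had a member peak and 4 a peak high in all 3 replicates. The nuclear receptor gene Eip75B stood at 1.65 in replicate 2 and 3.42 in replicate 3. The receptor partner gene usp stood at 1.43 and 1.497. Eip74EF, at 0.863 and 1.52, was also the only 1 of 8 ETS family genes with a member peak. Of 19 bZIP factor genes, 4 had a member peak, cnc, vri, Xbp1 and crc, and 3 a peak high in all 3 replicates. Peaks high in replicate 1 and 1 other lay at 3 of the 19 too. The clock factor gene vri stood at 1.45 and 1.38, and Xbp1, of the unfolded protein response, at 1.72 and 0.776. Of 29 genes of EGFR, Ras and MAPK signalling, 0 had a member promoter peak and 5 had a peak high in all 3 replicates. Over all coding genes the member share was 5.41%. In a list this short that is few genes, and the difference was not tested. Of 22 Notch pathway genes, 3 had a member peak (E(spl)m3-HLH and the gamma-secretase genes aph-1 and pen-2), and 6 had a peak high in all 3 replicates, E(spl)m3-HLH and aph-1 among them. Of 23 Polycomb and trithorax group genes, 4 had one in each class. The members were at brm and mor, which encode subunits of the Brahma remodelling complex, Su(z)12, a Polycomb repressive complex subunit, and Utx, a histone demethylase. The peak at brm was the highest, at 3.797 and 1.85. The list was not complete: Sfmbt, named above for its DRE, had a member promoter peak and was not in it.

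**Figure D5:**
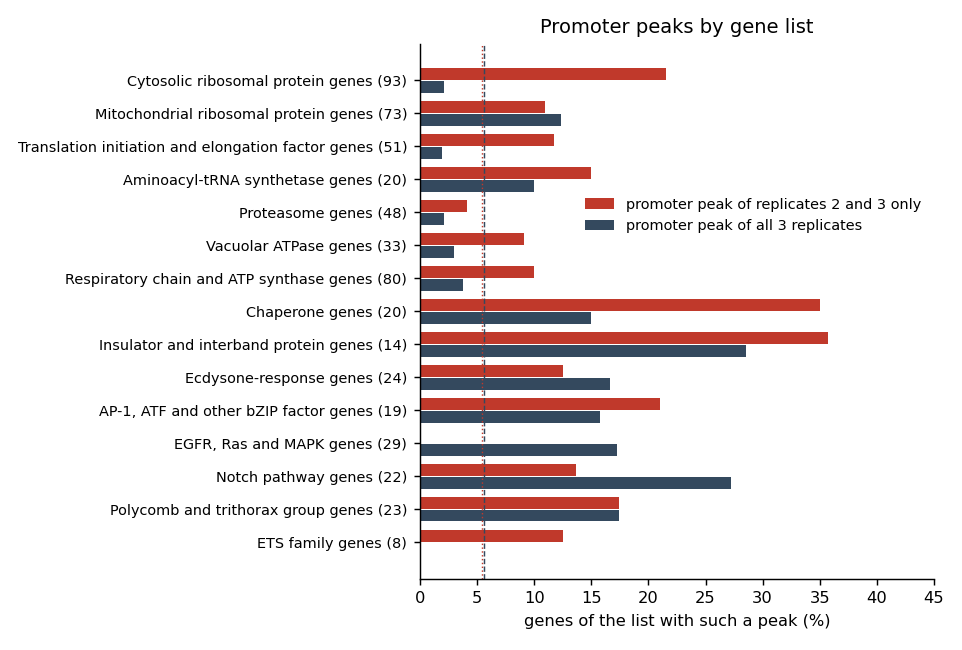
Share of the genes of each list, in percent, with a promoter peak of replicates 2 and 3 only (red) or one high in all 3 replicates (dark). The number of genes is in brackets, and the vertical lines at 5.41% (dotted) and 5.61% (dashed) give the same shares over all 13945 protein-coding genes. Cytosolic ribosomal protein genes reach 21.5% against 2.15%. EGFR, Ras and MAPK genes are at 0% against 17.2%, but in a list of 29 genes a share of 5.41% is few genes.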

How the data were processed

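Peak lists from 3 biological replicates, and the optimal list made from them by the irreproducible discovery rate, were used as the authors deposited them. Column 7 of each list is the signal that the authors deposited, and its scale is that of its own list. How reads were aligned and peaks called is not given in the sources used here. No control library was analysed here, and depth is unknown because the lists hold no reads. The dm6 lists were the main ones, and dm3 lists gave counts only.

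Summits, classes of peaks, positions and words were computed with Python 3.11.15, numpy 2.4.6 and scipy 1.17.1, and figures with matplotlib 3.10.9. The rule and the test were checked on simulated lists. Positions came from Ensembl release 115, without transposable elements, with 13945 protein-coding genes and 23581 TSS positions on 2L, 2R, 3L, 3R, 4 and X. A promoter summit, within 500 bp of a TSS, was counted at no other place. Coordinates are 1-based.

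Positions and words do not enter the rule and were compared by Fisher's exact test, two-sided, with p-values adjusted over 34 tests (17 features, 2 classes) by Benjamini-Hochberg and a threshold of 0.05. Signals, heights and ranks chose the members and are described only. Exact (Clopper-Pearson) 95% intervals cover counting error only. The members, the 15 gene lists and the 12 words were chosen with earlier results of these data known. Named were the 12 highest promoter members, 6 intronic, 6 intergenic, up to 6 genes per list, up to 5 genes with the most member summits and 3 peaks on each side of the limit. Genes named for a DRE without being among these were chosen after their values were seen. A few items that these rules name are not reported here.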

Additional observations from a re-analysis of the deposited data

How the results depend on the processing

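No paired analysis was possible because the 3 replicates form 1 group. The number of peaks high in replicates 2 and 3 and not in replicate 1 was 840, and 767 to 1039 under summit distances of 50 and 200 bp, top lists of 6000 peaks, absence from the whole list of replicate 1, interval overlap and the dm3 lists. It was 505 with top lists of 3000 peaks. With 1 replicate disregarded, the number ran from 1112 to 2888, since fewer conditions then apply. In those settings both comparisons use the same other peaks and are identical. The differences below are in percentage points, the class of replicates 2 and 3 minus the others.

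With 1 replicate disregarded, the difference in promoter share ran from 3.25 to 29.6, in introns from -16.2 to -1.70, in intergenic sequence from -13.2 to -0.947 and on X from -9.49 to -3.09. The DRE ran from -0.304 to 3.83, CGATA from -2.02 to 8.60, the M1BP word from -0.125 to 1.09, and the number of words past the threshold from 0 to 6. The value nearest 0, or past it, was in each case that without replicate 1, where no difference passed. The promoter difference kept its direction and passed in the other 13 alternatives against each class, among them autosomes only, which was added after seeing the data.

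Among peaks with a signal at or above the optimal median, 60 of the class of replicate 1 and 1 other were left. Against these the differences in introns (-6.17, adjusted p = 0.645), intergenic sequence (-8.41, adjusted p = 0.0680) and on X (-6.13, adjusted p = 0.494) no longer passed Fisher's exact test, and CGATA reversed (-1.55). CGATA also reversed outside promoters, at -1.05 and -0.610, and the M1BP word at -0.0448. Against peaks high in all 3 replicates, 4 words passed, and 2 at promoters alone, in the upper part by signal, with top lists of 3000 or within 50 bp, and 0 outside promoters. Against peaks high in replicate 1 and 1 other, 5 words passed, 3 on autosomes, 2 within 50 bp, 1 with top lists of 3000, and 0 at promoters alone, outside them or in the upper part. The causes were not tested.

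The optimal list was made with every replicate, so the classes are not independent of any of them. Lists of 3 libraries were used, no control library was analysed here, and the lists give no reads. A peak missing from replicate 1 therefore cannot be told apart from one below the end of its list.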
